A study of Mus musculus with 4 samples.

Results

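The 10 genes followed here mark or direct haematopoietic stem and progenitor cells, and they were measured in monocytes sorted from mouse bone marrow: the surface proteins Cd34 and Cd93, the proliferation-linked factors Myb, Myc and Sox4, the factors Gata2, Erg and Lmo2 of the stem cell transcription circuit, and the homeobox factors Hoxa9 and Meis1. They were chosen by symbol, and all 10 were found among the 31017 gene symbols counted. The cells came from wild-type C57BL/6 mice, 18 months old in the aged group and 3 months old in the young group, with 2 bulk RNA-seq libraries each. All 4 libraries carry the disease tag atherosclerosis, and the labels say neither whether the donors had lesions nor how many animals stand behind a library. Every p-value therefore rests on the spread between 2 libraries per group, which the test shares across genes. The 2 libraries of a group may differ only technically.

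Monocytes arise from stem cells through a series of progenitors, and the program of the progenitors is switched off on the way. Gata2, Erg and Lmo2 belong to a group of factors that bind blood enhancers together, Hoxa9 and Meis1 bind DNA as partners, and Myb and Myc keep progenitors dividing. Marrow monocytes are recently formed cells of this lineage. Transcripts of the earlier stages were counted in these sorted samples, and whether monocytes or other sorted cells carried them was not tested.

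Library totals ran from 20159129 to 34278754 counts. The 15 monocyte identity genes, among them Lyz2 and Csf1r, summed to 48920 and 49950 CPM (counts scaled to the TMM-adjusted library size) in the aged libraries and to 47709 and 50025 CPM in the young ones, and all 15 were detected. Lyz2 alone made up most of each sum. It stood at 34835 and 34698 CPM in aged replicates 1 and 2, and its young values were 32747 and 35199 CPM. The sums therefore mostly follow this gene, and the share of monocytes among the sorted cells was not tested. Of 12035 genes tested with edgeR, 694 (5.77%) differed between the ages at an adjusted p under 0.05, 2.87% higher and 2.89% lower in the aged libraries, with a median log2 change over all tested genes of -0.0044. Each log2 change is given ± its standard error (n = 2 per group), and positions are on GRCm38.

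One member, Cd93, passed the test and was lower in aged monocytes. Of the 10, 9 passed the filter on low counts, and the other 8 of these did not pass the test, the same number as in DESeq2 and limma-voom, where Cd93 was again the member that passed. An unadjusted p under 0.05 was reached by 2 of the 9 members (22.2%), against 21.1% of all tested genes. The groups did not overlap in 7 of the 9 (77.8%), 5 lower and 2 higher in the aged libraries, where 51.6% of all tested genes did not overlap. The log2 change was negative in 6 of the 9, against 50.7% of all tested genes, and their median was -0.16.

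**Figure D1:**
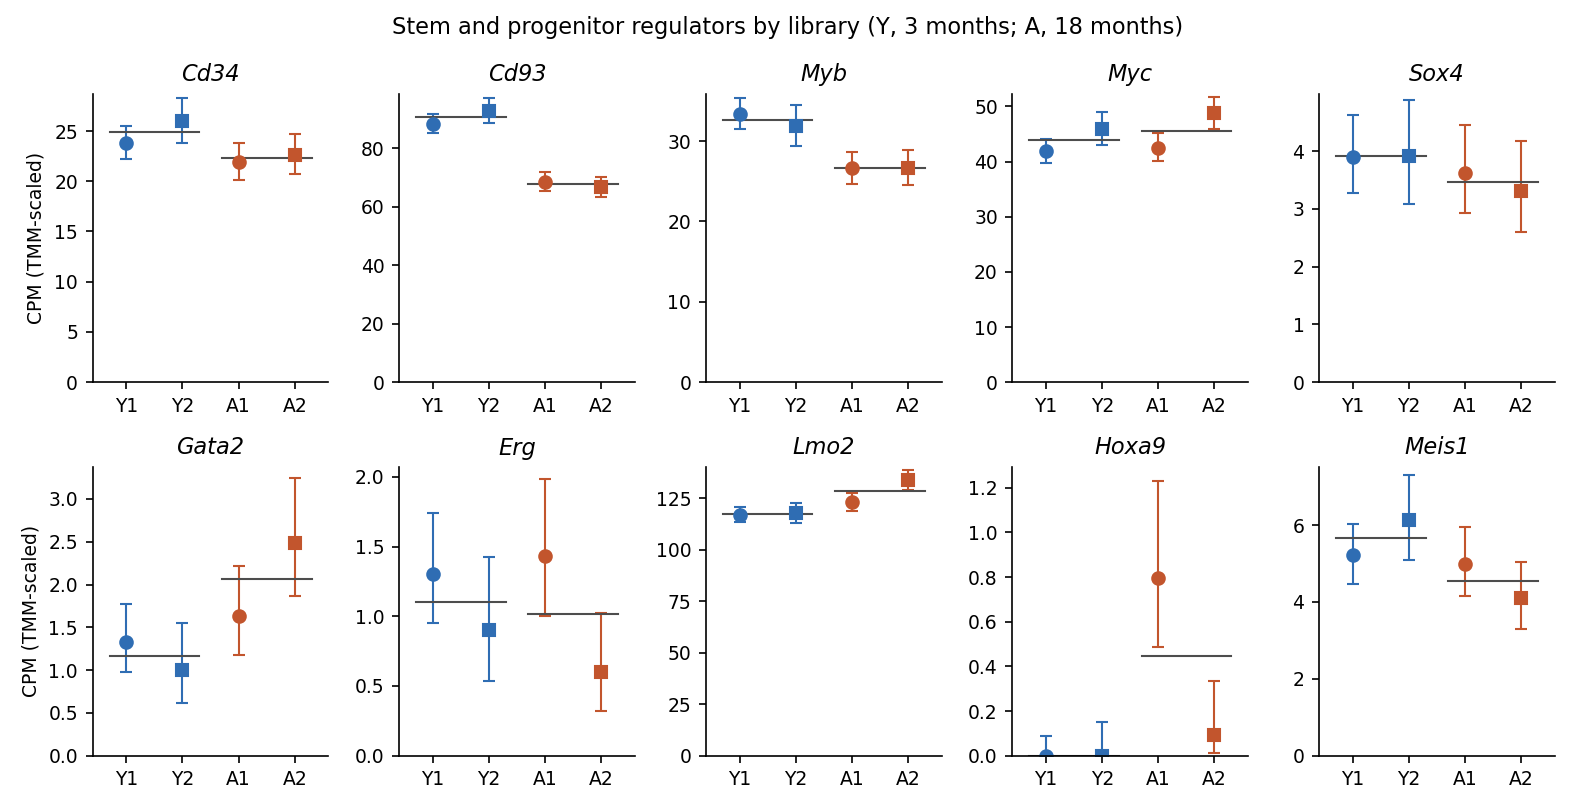
Level of each of the 10 members in the 4 libraries, in CPM on TMM-scaled library sizes (Y, young; A, aged). Points are libraries, vertical bars are 95% Poisson intervals of counting alone (for 0 counts, up to 3 counts), and horizontal lines are group means; Cd93 and Myb separate most clearly, and Hoxa9 was counted in the aged libraries only.

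Cd93 encodes a C-type lectin-like receptor of early haematopoietic cells, B cell precursors, endothelium and myeloid cells, and lies on chromosome 2 from 148436640 to 148443563 on the minus strand. It stood at 68.6 and 66.6 CPM in aged replicates 1 and 2 and at 88.5 and 92.7 CPM in young replicates 1 and 2. Both aged libraries were below both young ones, by far more than the replicates of a group differed. The log2 change was -0.42 ± 0.074 (95% interval -0.58 to -0.26, edgeR adjusted p = 0.00922), a fall from 90.6 ± 3.01 to 67.6 ± 1.39 CPM (SD, n = 2 per group), which is 25.3% lower. Its size was close to the median of the 348 genes that fell (-0.43). The adjusted p was 0.0522 without young replicate 1 and 0.0531 without young replicate 2, with changes of -0.45 and -0.39, so the call was lost without either young library.

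Cd34, the sialomucin used to sort stem and progenitor cells (chromosome 1, 194938819 to 194961279, plus strand), stood at 21.9 and 22.6 CPM in the aged pair and 23.8 and 26.0 CPM in the young pair. The aged values lay just below the young ones, and the gap was smaller than the spread of the young pair. The log2 change of -0.16 ± 0.11 did not pass (adjusted p = 0.441), its interval ran from -0.40 to 0.081, and it was -0.098 without young replicate 2. The antisense gene Gm16897 shares 2.03% of its exon length and had at most 6 counts in a library. None of the 5 tested relatives and partners of Cd34 and Cd93 passed (median 0.038, 0 with an unadjusted p under 0.05). Among them the smallest p belonged to Thbd, the thrombomodulin gene of the same lectin group as Cd93 (-0.19 ± 0.098, edgeR adjusted p = 0.292). Podxl and Emcn, the sialomucins nearest to Cd34, were not among the 5.

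Myb, a factor that immature blood cells need for proliferation and that is shut down as they mature (chromosome 10, 21124935 to 21160984, minus strand), stood at 26.6 and 26.7 CPM in the aged pair and 33.4 and 31.9 CPM in the young pair. The groups did not overlap, and the aged pair was nearly identical. The log2 change of -0.29 ± 0.097 (interval -0.51 to -0.079) had the second smallest p among the members but did not pass over all genes (adjusted p = 0.111), nor with any library left out (0.172 to 0.466). A gene on the opposite strand, Gm26577, shares 6.26% of the Myb exon length and had at most 4 counts in a library.

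Myc, the growth-promoting factor (chromosome 15, 61985391 to 61990374, plus strand), stood at 42.6 and 48.7 CPM in the aged pair and 41.9 and 45.9 CPM in the young pair. The groups overlapped. The log2 change was 0.058 ± 0.099 (adjusted p = 0.783), and its interval ran from -0.16 to 0.28. Its sign turned when aged replicate 2 or young replicate 1 was left out (-0.044 and -0.00777). Sox4, a factor of lymphoid and myeloid progenitors (chromosome 13, 28948919 to 28953713, minus strand), was low, at 3.63 and 3.31 CPM in the aged pair and 3.91 and 3.91 CPM in the young pair. The groups did not overlap but lay close together, with a log2 change of -0.17 ± 0.24 (interval -0.69 to 0.35, adjusted p = 0.725), or -0.11 without aged replicate 2. The noncoding gene Gm26735 covers 54.6% of the Sox4 exon length on the opposite strand and had 0 counts in all 4 libraries.

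Lmo2, the bridging protein that joins GATA and basic helix-loop-helix factors into one complex (chromosome 2, 103957986 to 103981878, plus strand), was the most abundant member. It stood at 123 and 134 CPM in the aged pair and 117 and 118 CPM in the young pair. The aged values were the higher ones, but the aged pair differed from each other by more than aged replicate 1 differed from the young pair. The log2 change of 0.13 ± 0.069 did not pass (interval -0.021 to 0.28, adjusted p = 0.306), and was 0.069 without aged replicate 2.

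Gata2, a zinc finger factor of stem cells, mast cells and basophils (chromosome 6, 88193891 to 88207032, plus strand), had 41 and 54 counts in the aged pair and 46 and 20 in the young pair, or 1.64 and 2.48 against 1.33 and 1.003 CPM. The aged values were above the young ones, and this was the largest positive change among the tested members (log2 change 0.79 ± 0.39). It did not pass (adjusted p = 0.281), with an interval from -0.083 to 1.66, and was 0.46 without aged replicate 2. Erg, the ETS factor that maintains stem cells (chromosome 16, 95359169 to 95586593, minus strand), had 36 and 13 counts in the aged pair and 45 and 18 in the young pair, or 1.44 and 0.598 against 1.30 and 0.903 CPM. The lowest and the highest value both belonged to aged libraries, so the groups overlapped. Its log2 change of -0.13 ± 0.50 (adjusted p = 0.919) lay between -0.90 and 0.35 when single libraries were dropped. At this depth the data could not show whether Erg changed.

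Since Erg is itself an ETS factor, the ETS core GGAA was looked up upstream of the member genes. Motifs of other members, the RUNX motif and the general E-box were searched too. Shown are the 250 bases before the RefSeq start (GRCm38.p6) of Myb, the member with the second smallest p, and of the upstream start of Gata2, the member with the largest positive change, with the ETS core (GGAA, or TTCC on the other strand) in capitals. The Myb stretch is chr10:21160985-21161234 on the minus strand and the Gata2 stretch chr6:88193641-88193890 on the plus strand.
Myb: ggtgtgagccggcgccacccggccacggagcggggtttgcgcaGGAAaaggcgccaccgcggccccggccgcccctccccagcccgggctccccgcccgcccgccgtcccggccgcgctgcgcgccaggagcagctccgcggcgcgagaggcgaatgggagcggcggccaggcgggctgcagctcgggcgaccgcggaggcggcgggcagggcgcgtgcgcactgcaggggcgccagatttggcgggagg
Gata2: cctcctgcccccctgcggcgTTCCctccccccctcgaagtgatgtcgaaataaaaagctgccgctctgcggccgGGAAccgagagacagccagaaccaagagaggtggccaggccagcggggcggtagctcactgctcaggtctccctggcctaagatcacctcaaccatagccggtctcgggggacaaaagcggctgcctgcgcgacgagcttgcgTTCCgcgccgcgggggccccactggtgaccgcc
The Myb stretch holds 1 ETS core and 81.2% G and C, and the Gata2 stretch holds 3 ETS cores and 67.2% G and C. The table gave starts for 7 of the members, Cd34, Hoxa9, Gata2, Myb, Meis1, Sox4 and Erg, with 10 windows in all. The ETS core was in 9 of the 10 windows and in 93.4% of the 32851 windows of all genes. The GATA motif AGATAA was in 1 of 10 (9.99% of all windows), the MYB motif AACNG in 7 (74.2%), the MEIS motif TGACAG in 1 (15.9%), the RUNX motif TGTGGT in 1 (14.0%) and the MYC motif CACGTG in 0 (6.02%). CANNTG, the general E-box that contains the MYC motif, was in 4 of 10 windows (66.2%). Both strands were searched, and a match describes letters, not a bound site.

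**Figure D2:**
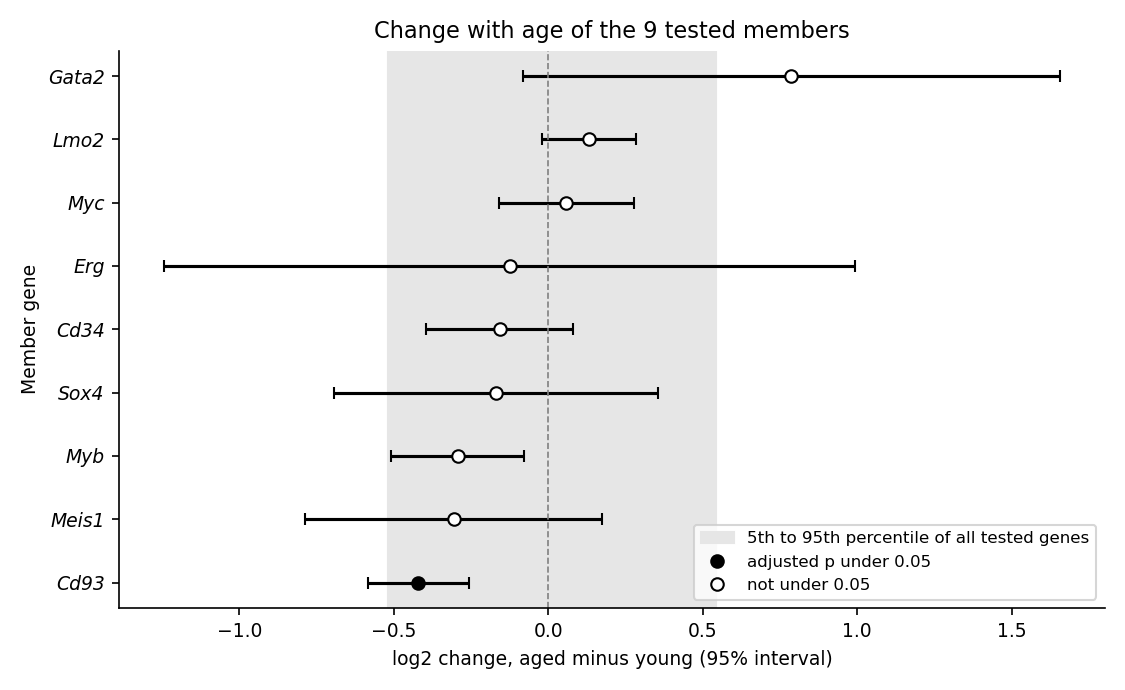
Log2 change from young to aged monocytes of the 9 tested members with its 95% interval from the edgeR fit, over the grey range that holds the middle of all 12035 tested genes (from -0.52 to 0.54, the 5 and 95 percentiles). Cd93 is filled as the member that passed at an adjusted p under 0.05; the intervals of Gata2 and Erg are the widest.

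Hoxa9, a homeobox factor of progenitors that is often raised in leukaemia (chromosome 6, 52223100 to 52231089, minus strand), was removed by the filter on low counts. It had 20 counts in aged replicate 1, 2 in aged replicate 2 and 0 in both young libraries. The microRNA gene Mir196b lies on the same strand over 1.52% of the Hoxa9 exon length and is not analysed here, and whether its transcripts are among these counts was not tested. Aged replicate 1 thus held 90.9% of the 22 aged counts. Its level there was 0.798 CPM (95% Poisson interval 0.487 to 1.23), while aged replicate 2 stood at 0.092 CPM (0.011 to 0.332), and 0 counts, taken to allow up to 3, allow up to 0.0868 and 0.151 CPM in young replicates 1 and 2. Summed over each group, the aged level was at least 8.54-fold higher than the limit of 3 counts over both young libraries, a value that rests on aged replicate 1. Fitted with no low-count filter, Hoxa9 had an edgeR adjusted p of 0.0197. That fit pooled the spread over genes, so this p-value does not measure the gap between 20 and 2 counts in the aged pair. The p-value, too, rests on aged replicate 1, without which 2 aged counts, fewer than the limit of 3, stand against 0. Of its neighbours in the cluster, Hoxa7 had 9 and 8 counts in the aged pair and 4 and 5 in the young pair, and Hoxa10 had 1 count in all 4 together. Poisson intervals cover counting error only, since amplified reads are not independent molecules.

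Meis1, the DNA-binding partner of Hoxa9 (chromosome 11, 18879817 to 19018985, minus strand), was present in every library, with 125 and 89 counts in the aged pair and 180 and 122 in the young pair, or 4.98 and 4.10 against 5.21 and 6.12 CPM. The aged values were the lower ones, though aged replicate 1 and young replicate 1 nearly met. The log2 change of -0.31 ± 0.22 did not pass (interval -0.79 to 0.17, adjusted p = 0.458), and was -0.18 without aged replicate 2 and -0.20 without young replicate 2. The antisense gene Gm16140, which shares 8.51% of the Meis1 exon length, had 0 counts in each library. Gm37818, an unverified gene model on the same strand, shares 9.77% and is not analysed here, and whether its reads are among those of Meis1 was not tested.

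Scaled by exon length, the members spanned from 56.7 CPM per kb for Lmo2 to 0.0399 for Hoxa9 as means over the 4 libraries. In the order of this level Lmo2 was followed by Myc (16.5), Cd93 (11.8), Myb (3.32), Cd34 (3.23), Sox4 (0.77), Meis1 (0.484), Erg (0.306), Gata2 (0.299) and Hoxa9, all in CPM per kb. Among the 11910 tested genes with a known exon length, Lmo2 was above 92.3%, Cd93 above 68.3% and Cd34 above 39.4%, whereas Meis1 was above 12.3% and Gata2 above 8.3%. In the aged libraries the values of Meis1 and Erg and of Erg and Gata2 overlapped, so these neighbours did not differ beyond their spread. The order of Myb and Cd34 turned there: both aged Cd34 values (3.003 and 3.11 CPM per kb) lay above both aged Myb values (2.98 and 2.99). In the young libraries no neighbours overlapped, and Myb lay above Cd34, although the lower Myb and the higher Cd34 value met at 3.57 and 3.56 CPM per kb. The order of Erg and Gata2 was Gata2 above Erg in the aged means (0.382 ± 0.111 and 0.293 ± 0.171) and Erg above Gata2 in the young means (0.318 ± 0.0815 and 0.216 ± 0.043; SD, n = 2).

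**Figure D3:**
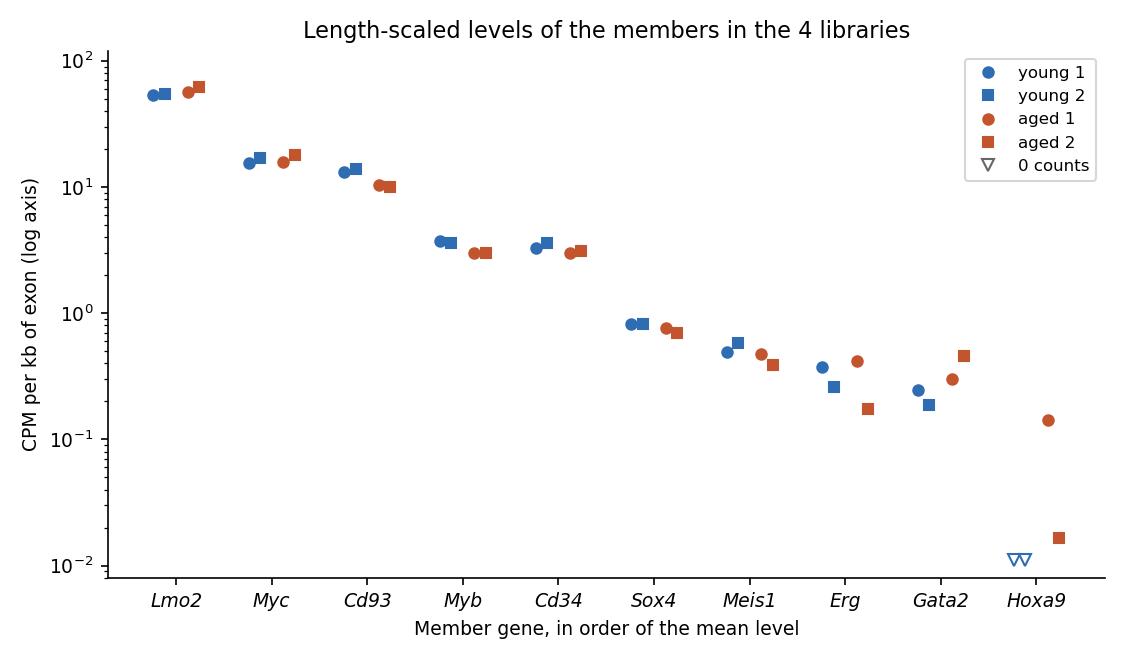
Level of each member per kb of exon on a log axis in the 4 libraries, ordered by the mean. Lmo2, Myc and Cd93 lie above 9 CPM per kb in every library, while Meis1, Erg, Gata2 and Hoxa9 lie below 0.6, and open triangles at the bottom mark the 2 young libraries with 0 counts of Hoxa9.

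Over the 7 lists of relatives, partners and targets of the members, 5 of 91 tested genes passed (5.49%, against 5.77% of all tested genes), 0 higher and 5 lower. These lists were read from the same fit and are described by counts, beside 2.87% of all tested genes called higher and 2.89% called lower. In the LMO2 complex and the wider group of stem cell factors, 0 of 15 tested genes passed with edgeR, 3 had an unadjusted p under 0.05 and the median was 0.072; the smallest p belonged to Fli1, the closest ETS relative of Erg (-0.18 ± 0.061, adjusted p = 0.119). Of 12 ETS relatives Elf4 fell (-0.32 ± 0.069, adjusted p = 0.0251), with a list median of -0.049, but not without young replicate 1 (0.0936) or young replicate 2 (0.0976). Among 12 tested genes of the Hoxa cluster, the MEIS and PBX partners and the menin-MLL cofactors, 0 passed, 3 had an unadjusted p under 0.05, the median was 0.17, and Pbx3, a partner of Hoxa9 and Meis1, had the smallest p (0.40 ± 0.15, adjusted p = 0.157). The other 11 listed genes, most of them Hoxa genes, were not tested, and 4 had 0 counts in all libraries. Without aged replicate 2, 2 of this list passed as lower, and without aged replicate 1, 1 gene of the LMO2 list as higher.

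The Myc network gave 2 falls among 15 partners and antagonists, with a median of -0.011. They were Mga, a repressive partner of Max (-0.40 ± 0.096, adjusted p = 0.0372), and Mnt, an antagonist of Myc (-0.60 ± 0.15, adjusted p = 0.0429). Mga did not pass with any 1 library left out (0.0503 to 0.271), and Mnt passed only without aged replicate 2. The change of Mnt was -0.89 without that library and -0.36 without aged replicate 1. Of 26 genes for growth and ribosome biogenesis that Myc is known to induce, 0 passed and 4 had an unadjusted p under 0.05; 13 were higher and 13 lower, the median was 0.0058, and the smallest p was that of the ribosome assembly gene Utp20 (-0.38 ± 0.11, adjusted p = 0.0628). Without aged replicate 1, 3 of these 26 passed as lower, and 1 without aged replicate 2 or young replicate 2.

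Among the 7 genes of the Myb list, which holds relatives, coactivators and nuclear kinases, 2 fell, a coactivator and a kinase. Ep300, the acetyltransferase that Myb recruits, stood at 150 and 151 CPM in the aged pair and 191 and 208 CPM in the young pair (-0.40 ± 0.065, adjusted p = 0.00576). Hipk1, a nuclear kinase, stood at 180 and 195 against 244 and 262 CPM (-0.43 ± 0.066, adjusted p = 0.00466). Both passed with each library left out, and the list median was -0.056. Crebbp, the paralogue of Ep300, overlapped between the groups at 84.1 and 105 against 99.8 and 129 CPM (edgeR adjusted p = 0.258).

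Of 10 granulocyte-monocyte progenitor genes 5 fell and none rose, with a median of -0.28. Ms4a3, a marker of that progenitor, stood at 57.9 and 52.7 CPM in the aged pair and 81.0 and 82.3 CPM in the young pair (-0.56 ± 0.080, adjusted p = 0.00297). The granule protease genes Elane (-0.33 ± 0.051, adjusted p = 0.00473) and Prtn3 (-0.36 ± 0.064, adjusted p = 0.0101) fell too, and the other 2 were Ctsg and Mpo. Without young replicate 1 the count was 2, Ms4a3 and Elane, and without aged replicate 1 there were 6 falls and 1 rise. Whether this list differed from the members was not tested.

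Of 14 other stem cell and progenitor genes that were tested 2 rose and 1 fell, with a median of 0.014. Kit, the stem cell factor receptor, fell from 23.0 and 23.4 CPM in the young to 11.8 and 16.3 CPM in the aged libraries (-0.73 ± 0.15, adjusted p = 0.0202). Flt3, a receptor of early and dendritic progenitors, rose from 27.1 and 29.1 to 39.0 and 38.6 CPM (0.47 ± 0.095, adjusted p = 0.0183). Ly6a, which encodes the stem cell antigen Sca-1, rose from 3.62 and 2.51 to 6.54 and 6.21 CPM (1.03 ± 0.24, adjusted p = 0.0326). None of the 3 passed without young replicate 1 (0.0964, 0.178 and 0.0529), and Ly6a was also lost without young replicate 2 (0.134). Mecom, a factor of the most primitive stem cells, had 0 counts in every library.

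**Figure D4:**
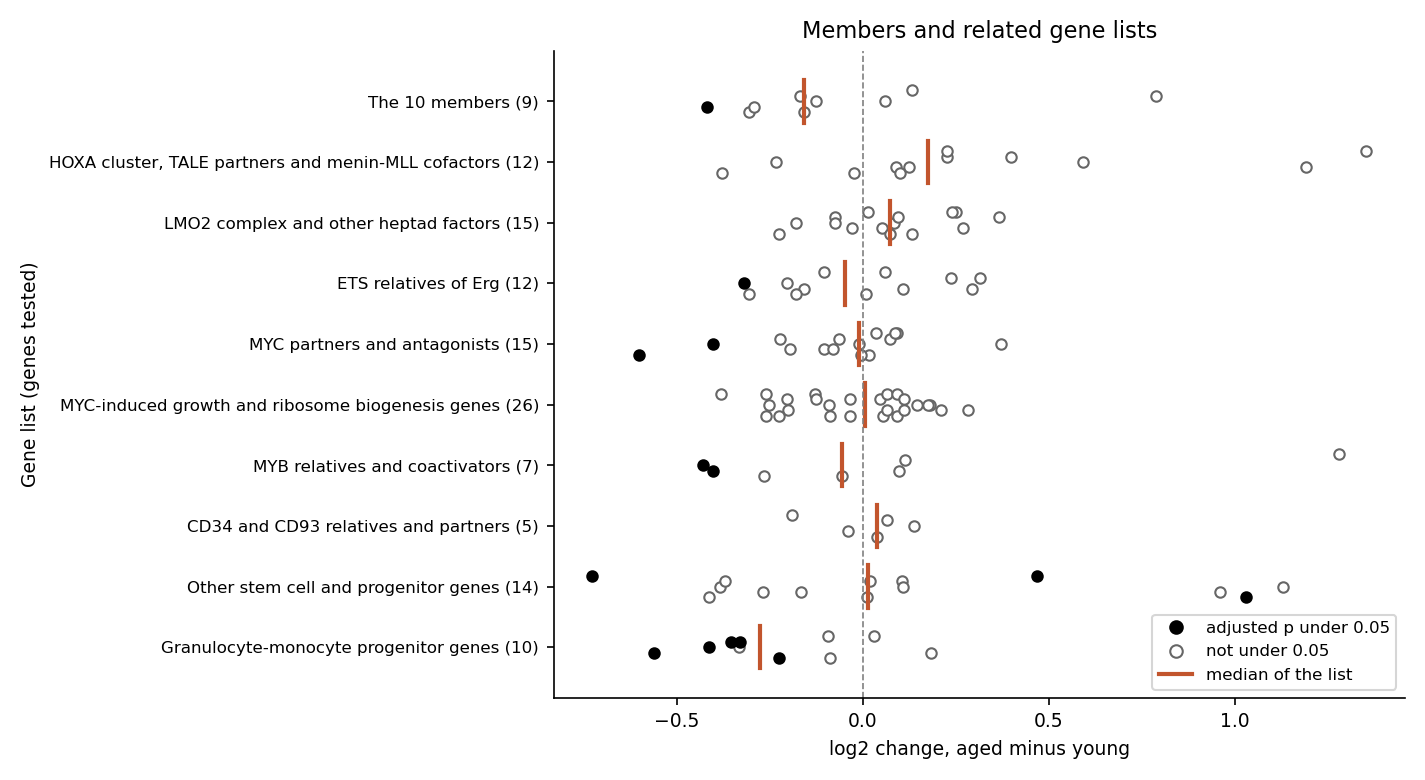
Log2 change from young to aged monocytes of the tested genes in the members and in 9 related lists; each point is a gene, filled where the adjusted p was under 0.05, and the coloured bar is the list's median. Granulocyte-monocyte progenitor genes lie furthest to the left (median -0.28), while growth genes induced by Myc centre near 0 (0.0058).

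Several members are also expressed by other marrow cells, and fewer cells of a type and less RNA per cell cannot be told apart in bulk samples. Of 25 cell cycle genes 1 fell, Mcm7 (-0.30 ± 0.063, edgeR adjusted p = 0.0207), but not without young replicate 1 or 2. An unadjusted p under 0.05 was reached by 13 of the 25, against 21.1% of all tested genes, and 21 had a negative change. Without the low-count filter, in a fit that pooled the spread over genes, 7 passed as lower. The list summed to 3334 and 3247 CPM in the aged pair and 3651 and 3636 CPM in the young pair. For Cd93, Myb, Sox4 and Erg, which B cell precursors express, the B-lineage list was higher in the aged pair: 4 of 9 tested genes rose, among them Cd79b and Ms4a1 (3 without aged replicate 1 and 1 without any other library), the sums were 55.8 and 58.9 against 37.8 and 34.3 CPM, and the most abundant genes were Cd79b (25.04 and 27.6 against 18.5 and 18.4 CPM) and Cd79a (9.49 and 8.24 against 6.14 and 3.61 CPM). Its precursor markers were low, with at most 16 counts of Rag1, 10 of Igll1, 28 of Vpreb1 and 30 of Vpreb3 in a library. Erg itself had 13 to 45 counts a library. For Gata2, mast cell and basophil genes summed to 215 and 210 CPM in the aged pair and 231 and 243 CPM in the young pair. Of 7 tested genes 6 had a negative change, with a median of -0.45. Only Kit, a gene of both lists, passed, though not without young replicate 1. The most abundant were Prss34 (15.7 and 17.2 against 21.6 and 23.3 CPM) and Hdc, which made up most of each sum (178 and 166 against 174 and 183 CPM). Hdc is made by myeloid cells as well. Endothelial and stromal genes, of interest for Cd93, Cd34 and Erg, summed to 3.79 and 3.45 against 1.77 and 2.21 CPM, with 0 of 3 tested genes called and 2 at an unadjusted p under 0.05; Tek had 1 count in all 4 libraries together, Cdh5 at most 11 counts in a library, and Cxcl12 and Egfl7 were the most abundant. Megakaryocyte genes summed to 5.78 and 5.98 against 3.62 and 3.26 CPM, with 0 of 4 called, 2 at an unadjusted p under 0.05, and Itga2b and Vwf the most abundant. The part of these cells in the values of the members was not tested.

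Other lists were read in the same way. Of 12 erythroid genes, with Hbb-bs and Hba-a1 the most abundant, Car2 rose (1.23 ± 0.16), and 2 rose without aged replicate 2 and 1 fell without aged replicate 1. The 10 neutrophil genes, with S100a9 and S100a8 the most abundant, summed to 32691 and 33218 CPM in the aged pair. In the young pair they summed to 33396 and 32187 CPM. Ltf and Ngp rose, S100a8 and Cxcr2 fell, and 8 of the 10 had an unadjusted p under 0.05 with edgeR. Of 9 tested genes each for T and NK cells and for plasmacytoid dendritic cells, with Cd3d and Trac and with Irf7 and Tcf4 the most abundant, 0 were called with edgeR, 1 in each at an unadjusted p under 0.05, and without aged replicate 1 a plasmacytoid gene passed as higher. Immediate early and stress genes, a sign of sample handling as well as of signalling, summed to 5130 and 5299 CPM in the aged pair and 2992 and 3032 CPM in the young pair, and 15 of 21 rose, Fos, Zfp36 and Dusp1 with the smallest p. Of the 15 monocyte identity genes 4 rose, among them Csf1r, Spi1 and Cd68, and 2 fell, Ly6c2 and Mpeg1. An unadjusted p under 0.05 with edgeR was reached by 10 of the 15, and 12 had a positive change. Without young replicate 1 only 1 rose, Csf1r, and only 1 fell, Ly6c2; without aged replicate 2 also 1 fell. The part of these differences in the values of the members was not tested.

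**Figure D5:**
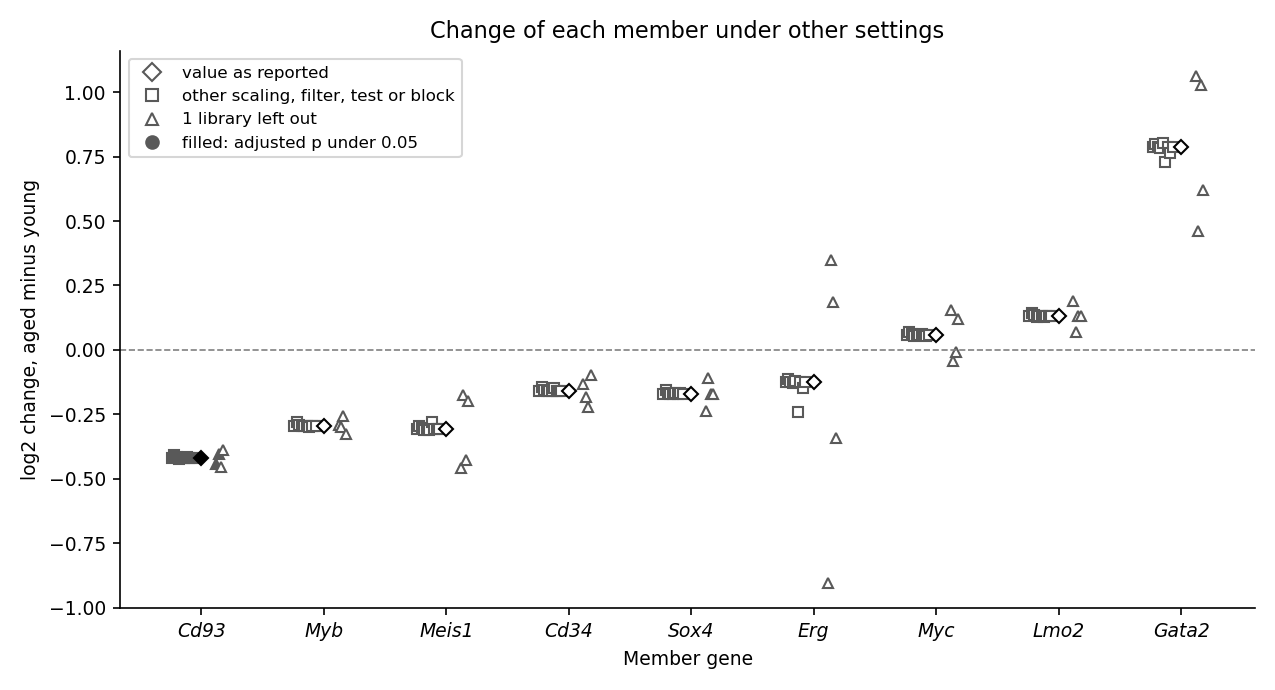
Log2 change of each tested member as reported (diamonds), under other scalings, filters, tests and the replicate block (squares) and with 1 library left out (triangles), filled where the adjusted p was under 0.05. Cd93 lies between -0.45 and -0.39 under every setting drawn, whereas Erg runs from -0.90 to 0.35.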

How the data were processed

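Bulk RNA-seq of sorted bone marrow monocytes was available as 1 table of raw counts per library, 2 aged and 2 young, deposited without normalization or a header. The build mm10 and the tools STAR 2.5.3, cutadapt, HTSeq and DESeq2 appear in the submitters' processing notes without roles; per the labels' protocols, libraries were oligo-dT selected and strand-specific. Which annotation and strand setting the counting used is not given in the sources at hand. Libraries were grouped by their titles. Genes were kept by filterByExpr (minimum count 10, minimum total 15), scaled with TMM and tested two-sided for age in edgeR 4.0.16 (quasi-likelihood F-test, R 4.3.3), with p-values adjusted by Benjamini-Hochberg over all 12035 genes at 0.05. A standard error is the size of the log2 change divided by the square root of F. The procedure was tested on simulated data, whose spread was set by a formula and not fitted to these libraries. It recovered 18 of 50 genes changed 1.25-fold and 40 of 50 changed 1.5-fold. At 2-fold and 4-fold it recovered 46 and 50 of 50.

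All 10 members and 30416 of 31017 symbols matched 1 gene of GENCODE M21 (GRCm38), which gave positions and merged exon lengths. Upstream sequences are RefSeq's (GRCm38.p6). No 2 libraries were duplicates: replicate pairs differed by 10.2 and 13.5 times the chi-square expected from counting alone. The members and lists were chosen with earlier results of these data known. Named were all members, from each list up to 3 genes per direction that passed or, where none did, the one with the smallest p, and from lists of other cell types the 2 most abundant; Podxl, Emcn, Crebbp, Hoxa7, Hoxa10, Mecom, Ctsg, Mpo, Rag1, Igll1, Vpreb1, Tek and Cdh5 were named outside this rule, and 1 gene that the rule names is not reported here. The alternatives tried were scaling by RLE, upper quartile or library size, no filter or at least 5 CPM, DESeq2 1.42.0, limma-voom (limma 3.58.1), robust edgeR, the replicate number as a block, removal of immunoglobulin and haemoglobin genes, and each library left out.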

Additional observations from a re-analysis of the deposited data

How the results depend on the processing

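Cd93 kept its sign under all 14 alternatives (log2 change -0.45 to -0.39) and passed in 12, all but those without young replicate 1 or young replicate 2. Over the libraries left out, 197 to 1040 genes passed (116 to 452 higher, 81 to 588 lower), and 0 to 2 members passed, 0 to 1 of them lower; the second was Hoxa9, which enters those tests only through aged replicate 1. Without a low-count filter 1399 of 17314 genes passed, 606 higher and 793 lower, and 2 of 10 members, Cd93 and Hoxa9. The fit without a filter pooled the spread over genes, so its calls do not measure the spread of each gene's own replicates. The replicate numbers pair no known animals or batches, and deviations of same-numbered libraries correlated at 0.0937. With the replicate number as a block 1817 of 12035 genes passed with edgeR, 801 higher and 1016 lower. Of 9 tested members 2 passed, both lower: Cd93 (edgeR adjusted p = 1.83e-06) and Myb (-0.29, edgeR adjusted p = 0.0407). Their standard errors were 0.077 and 0.106 with the block and 0.0737 and 0.0968 without it. The block fit pooled the spread over genes, so these lower adjusted p-values are no gain in precision. The sign of Myc and Erg, which passed in no alternative, depended on the libraries: Myc lay between -0.044 and 0.15 when single libraries were dropped (-0.00777 without young replicate 1) and Erg between -0.90 and 0.35 (0.19 without young replicate 1). The cause was not tested. Scaling moved the median of all genes from -0.0046 to 0.0083. Depth limits Sox4, Gata2, Erg, Meis1 and Hoxa9, with at most 180 counts a library.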
